A study of Mus musculus with 18 samples.

Results

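Type I interferon response genes were described as a set of 38 mouse genes among the 35275 gene IDs of the deposited expression table. The set was a list of symbols of known interferon-stimulated genes, matched to the table's Ensembl IDs. No threshold on these values picked its members, but the list was drawn up with earlier results of these data known. Of the 38, 37 had a mean of at least 1 FPKM (fragments scaled by transcript length and library total) over all libraries and were tested, among 11646 genes in all. The remaining member, Ifi44, was listed at 0.0274 to 0.342 FPKM.

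The series asks how 2 forms of BAFF, a survival cytokine of B cells, change the transcriptome of splenic pan B cells from C57BL/6 mice. BAFF 60mer and BAFF 3mer are assemblies of 60 and 3 subunits, given at 100 ng/ml for 4 h. Before that, all cells spent 1 h with 1000 ng/ml of mBaffR-mFc, a reagent that covers the part of BAFF which docks onto the receptor BR3, or of a control antibody. The 6 groups of 3 libraries were mBaffR-mFc with BAFF 60mer (BRFc_60mer), with BAFF 3mer (BRFc_3mer) or with no BAFF (BRFc), and control antibody with BAFF 60mer (Ab_60mer), with BAFF 3mer (Ab_3mer) or with no BAFF (Ab). Libraries are numbered 1 to 3 in the order of their deposition. The labels do not say whether the 3 libraries of a group came from separate mice or cultures, so a p-value here reflects library-to-library spread, which may be technical. No interferon was given to any group.

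Type I interferons bind a receptor made of IFNAR1 and IFNAR2, whose kinases JAK1 and TYK2 phosphorylate STAT proteins. STAT2 and IRF9 are parts of the complex ISGF3, which binds interferon-stimulated response elements (ISREs) in front of its target genes. The targets include RNA sensors, antiviral effectors, the ubiquitin-like protein ISG15 with its enzymes, and STAT2, IRF9 and IRF7 themselves, so that low constant signalling keeps the set expressed in resting cells. In B cells interferon is known to lower the threshold for responses to nucleic acids and antigen.

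The libraries held 12.2 to 25.4 M fragments, as recovered from the steps between low FPKM values, with a median of 18.4 M. The 8 B cell marker genes summed to 2799.7 to 3222 FPKM over the libraries, against 2.64 to 4.07 FPKM for 6 T cell markers. NK cell markers summed to 114 to 144 FPKM. Transcripts of 6 connective tissue genes, foreign to B cells, summed to 8.14 to 12.9 FPKM in 8 libraries, those of Ab_60mer and BRFc_60mer and libraries 1 and 2 of Ab_3mer, and to at most 0.13 FPKM in the other 10. Every comparison of BAFF 60mer with no BAFF lies across this split, as does that of BRFc_60mer with BRFc_3mer, so in them BAFF 60mer and whatever left these transcripts cannot be told apart. Because libraries 1 and 2 of Ab_3mer carry them, Ab_3mer minus Ab and BRFc_3mer minus Ab_3mer lie partly across the split. So do the BAFF 3mer interaction and the averages that use Ab_3mer. Within a pretreatment, only Ab_60mer can be set against carrying libraries of another BAFF state. BRFc_60mer minus Ab_60mer, which compares pretreatments, lies wholly among carrying libraries.

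The promoters show which members hold the ISRE core, GAAANNGAAA on either strand (reverse complement TTTCNNTTTC, with N any base). RefSeq promoter sequences of GRCm38.p6 were at hand for 29 of the 38 members. The core was found in the 250 bases before the start in 11 of the 29 (37.9%), against 936 of 27025 genes (3.46%). The holders were Bst2, Ifit1, Ifit3, Ifit3b, Isg15, Oas1a, Oas3, Rsad2, Slfn5, Stat2 and Trim30a. The GAS motif TTCNNNGAA, a palindrome bound by STAT dimers, was found in 4 of the 29 (13.8%), against 8.13% of all genes. Shown first are 120 bases around the core, in capitals, of 4 holders: Isg15 and Ifit1 as classical interferon targets, Ifit3, and Bst2, the single holder that passed a test between 2 groups. Overlapping matches run together, as do the 3 of Isg15. They lie at chr4:156200826-156200945 (minus strand), chr19:34640739-34640858 (plus), chr19:34583335-34583454 (plus) and chr8:71537535-71537654 (minus).
Isg15: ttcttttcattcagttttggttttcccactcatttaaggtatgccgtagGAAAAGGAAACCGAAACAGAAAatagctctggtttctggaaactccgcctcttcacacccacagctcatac
Ifit1: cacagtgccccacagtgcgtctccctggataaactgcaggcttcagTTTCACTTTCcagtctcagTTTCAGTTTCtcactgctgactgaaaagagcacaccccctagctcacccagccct
Ifit3: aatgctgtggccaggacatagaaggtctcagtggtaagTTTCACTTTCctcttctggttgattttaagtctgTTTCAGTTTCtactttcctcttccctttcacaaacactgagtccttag
Bst2: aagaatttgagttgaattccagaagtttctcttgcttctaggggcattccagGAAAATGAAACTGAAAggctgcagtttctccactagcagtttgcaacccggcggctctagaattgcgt

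The members with the clearest differences, Trim25 and Samd9l, had no match in their 250 bases, nor did Irf7 and Ifitm3, which also passed a test. No promoter of Mx1 or Ifi27l2a was at hand. The last 120 bases before the start are shown for comparison, at chr11:88999283-88999402 (plus) for Trim25 and chr6:3399572-3399691 (minus) for Samd9l. They have no capitals because they hold no match. This says only that these letters are not in this window.
Trim25: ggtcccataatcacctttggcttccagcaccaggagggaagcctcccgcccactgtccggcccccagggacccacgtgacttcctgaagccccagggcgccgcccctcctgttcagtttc
Samd9l: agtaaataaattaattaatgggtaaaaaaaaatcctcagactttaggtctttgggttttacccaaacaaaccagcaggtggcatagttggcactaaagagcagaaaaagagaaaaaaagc

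A few interferon response genes were lower with BAFF 60mer under either pretreatment, and BAFF 3mer changed none by the test. Trim25 averaged 61.7 ± 3.46 FPKM in BRFc_60mer and 83.5 ± 9.01 FPKM in BRFc, and 60.4 ± 2.43 FPKM in Ab_60mer and 76.3 ± 1.46 FPKM in Ab (SD, n = 3 each). Under mBaffR-mFc, Trim25, Mx1, Samd9l and Irf7 were lower with BAFF 60mer than with no BAFF, and under control antibody Trim25 and Samd9l were. No member was higher in any comparison of 2 groups by the test. Differences are given in log2(FPKM + 1) and were tested with limma across all 11646 genes, with a Benjamini-Hochberg adjusted p under 0.05 called passing. In bulk RNA, fewer cells of a type and less RNA per cell cannot be told apart.

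**Figure D1:**
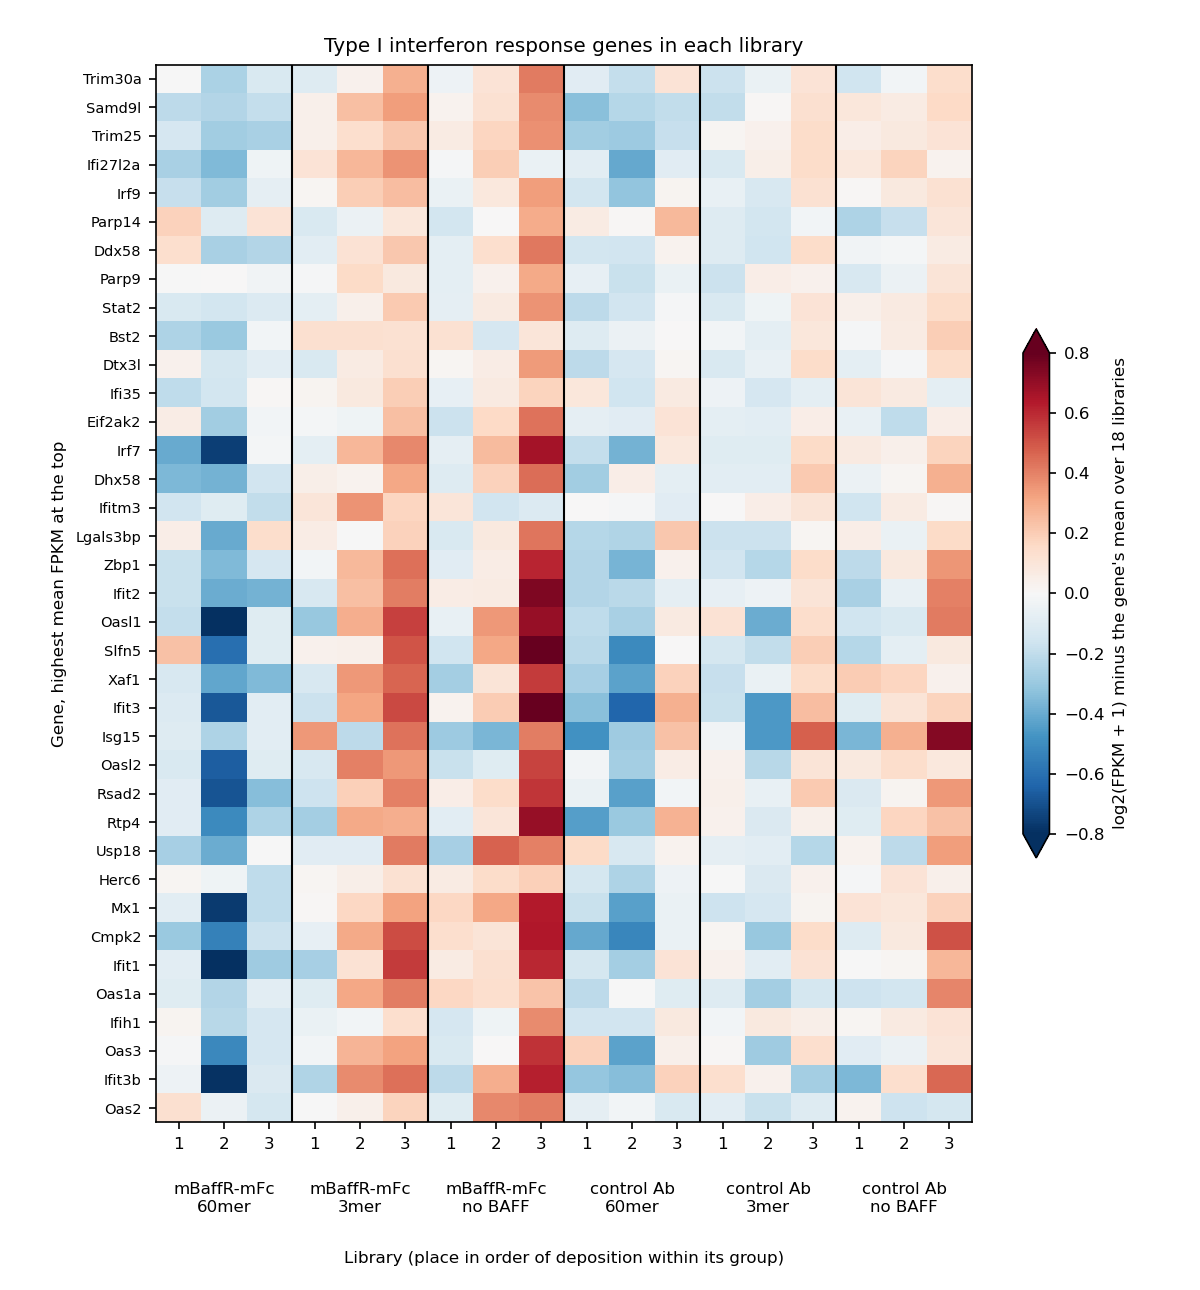
Each row is 1 of the 37 tested members and each column 1 of the 18 libraries, by group; colour gives log2(FPKM + 1) minus the gene's mean over the 18 libraries, red for higher and blue for lower. Library 2 of BRFc_60mer holds the lowest value of 21 members and library 3 of BRFc the highest value of 30.

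Trim25 is a ubiquitin ligase that modifies the RNA sensor RIG-I and can also attach ISG15. In libraries 1, 2 and 3 it had 65.6, 59.2 and 60.2 FPKM in BRFc_60mer, 74.1, 79.2 and 83.8 FPKM in BRFc_3mer, and 75.6, 81.5 and 93.3 FPKM in BRFc. Under control antibody it had 59.2, 58.9 and 63.2 FPKM in Ab_60mer, 72.9, 73.8 and 80.1 FPKM in Ab_3mer, and 74.9, 76.4 and 77.8 FPKM in Ab. All 6 libraries with BAFF 60mer lay below all 12 others, with no overlap. The difference of BRFc_60mer minus BRFc was -0.43 (SE 0.067), with adjusted p = 0.00133 by limma, and that of BRFc_60mer minus BRFc_3mer was -0.35 (adjusted p = 0.00511). Ab_60mer minus Ab gave -0.33 (adjusted p = 0.00451) and Ab_60mer minus Ab_3mer -0.32 (adjusted p = 0.0107). Of these comparisons, only the last reaches inside the split by connective tissue transcripts. Against the carrying libraries of Ab_3mer alone, at 72.9 and 73.8 FPKM, Ab_60mer differed by -0.28 (SE 0.074), with adjusted p = 0.067 by limma. Without library 3 of Ab_3mer, which leaves the same libraries in it, the call of Ab_60mer minus Ab_3mer was likewise lost, and also without library 1 of Ab_60mer. The other 3 calls of Trim25 passed in all 18 fits that left out 1 library.

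Samd9l restricts poxviruses and dampens growth factor signalling. It had 65.1, 63.9 and 65.8 FPKM in BRFc_60mer, 77.5, 89.2 and 95.2 FPKM in BRFc_3mer, and 77.0, 82.3 and 98.2 FPKM in BRFc. It had 59.6, 64.3 and 65.8 FPKM in Ab_60mer, 65.8, 76.1 and 82.6 FPKM in Ab_3mer, and 80.4, 78.8 and 84.4 FPKM in Ab. The libraries with BAFF 60mer lay below all libraries with no BAFF, and library 1 of Ab_3mer lay at their upper end. The difference was -0.39 (SE 0.089, adjusted p = 0.0173 by limma) for BRFc_60mer minus BRFc, -0.42 (adjusted p = 0.0118) for BRFc_60mer minus BRFc_3mer and -0.36 (adjusted p = 0.0152) for Ab_60mer minus Ab. Ab_60mer minus Ab_3mer did not pass. Single libraries decided these calls: by limma, the first had adjusted p = 0.1 without library 3 of BRFc and was also lost without library 1 or 2 of BRFc_60mer. The second had 0.0738 without library 3 of BRFc_3mer and was also lost without its library 2. The third had 0.0709 without library 1 of Ab_60mer and was also lost without library 3 of Ab.

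**Figure D2:**
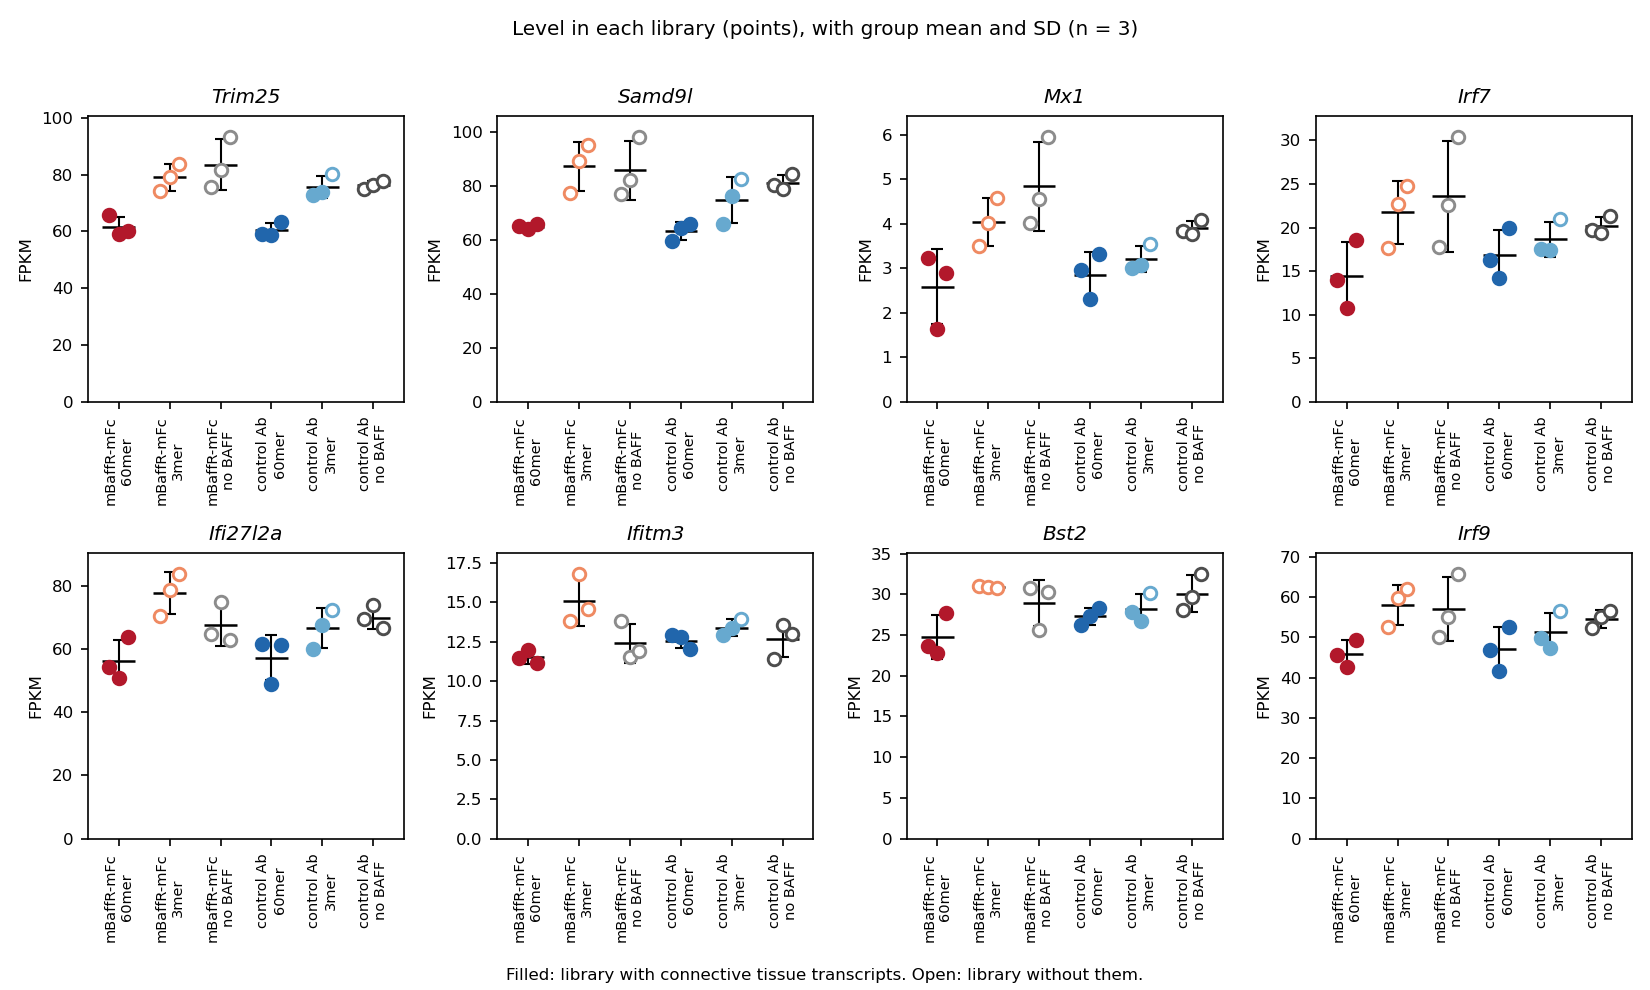
Points are the FPKM of single libraries for 8 members, by group, with the group mean (horizontal line) and SD (n = 3); filled points are the 8 libraries with connective tissue transcripts and open points the other 10. All filled points of Trim25 in the 60mer groups, 58.9 to 65.6 FPKM, lie below the filled points of Ab_3mer, 72.9 and 73.8 FPKM.

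Among the members that carry the interferon signal, Irf7, which drives the second wave of interferon production, was lower with BAFF 60mer under mBaffR-mFc. It had 13.9, 10.7 and 18.5 FPKM in BRFc_60mer, 17.7, 22.7 and 24.8 FPKM in BRFc_3mer, and 17.8, 22.6 and 30.4 FPKM in BRFc. It had 16.3, 14.2 and 19.9 FPKM in Ab_60mer, 17.5, 17.5 and 21.0 FPKM in Ab_3mer, and 19.7, 19.3 and 21.3 FPKM in Ab. The groups overlapped in each comparison with BAFF 60mer. The difference of BRFc_60mer minus BRFc was -0.68 (SE 0.19, adjusted p = 0.0453 by limma), and it passed in 7 of the 18 fits that left out a library, with 0.240 without library 3 of BRFc and 0.204 without library 2 of BRFc_60mer.

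Irf9, the DNA-binding part of ISGF3, had 45.6, 42.6 and 49.4 FPKM in BRFc_60mer, 52.5, 59.8 and 61.9 FPKM in BRFc_3mer, and 50.1, 55.1 and 65.8 FPKM in BRFc. It had 46.8, 41.5 and 52.7 FPKM in Ab_60mer, 49.8, 47.4 and 56.6 FPKM in Ab_3mer, and 52.2, 54.9 and 56.6 FPKM in Ab. The libraries of BRFc_60mer lay below those of BRFc without overlap, but the difference of -0.30 did not pass (adjusted p = 0.0987 by limma). Stat2, the other ISGF3 subunit among the members, averaged 28.3 ± 0.42 FPKM in BRFc_60mer and 34 ± 5.4 FPKM in BRFc (SD, n = 3 each), and did not pass either (-0.24, adjusted p = 0.157).

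Among the RNA and DNA sensors, none passed between 2 groups. Dhx58 (LGP2), a helper of the RNA sensors RIG-I and MDA5, came nearest, with 14.1 ± 1.4 FPKM in BRFc_60mer and 20.1 ± 4.0 FPKM in BRFc (-0.47, adjusted p = 0.0518 by limma). Ddx58 (RIG-I) averaged 38 FPKM in BRFc_60mer and 46.4 FPKM in BRFc, Ifih1 (MDA5) 2.17 and 2.64 FPKM, and Zbp1, a sensor of Z-form nucleic acid, 8.81 and 12.4 FPKM. Their differences ran from -0.41 for Zbp1 to -0.18 for Ifih1.

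Among genes classed as direct antiviral effectors, the transcript of Mx1, of the Mx GTPase family, was lower with BAFF 60mer under mBaffR-mFc. It had 3.23, 1.64 and 2.89 FPKM in BRFc_60mer, 3.51, 4.03 and 4.59 FPKM in BRFc_3mer, and 4.02, 4.56 and 5.96 FPKM in BRFc. It had 2.95, 2.31 and 3.31 FPKM in Ab_60mer, 3.00, 3.08 and 3.56 FPKM in Ab_3mer, and 3.83, 3.77 and 4.10 FPKM in Ab. The libraries with BAFF 60mer lay below those with no BAFF under either pretreatment, without overlap. BRFc_60mer minus BRFc was -0.72 (SE 0.16, adjusted p = 0.0136 by limma), the largest fall of a member that passed between 2 groups. Without library 3 of BRFc the adjusted p was 0.0847, and the call was also lost without library 2 of BRFc_60mer. Under control antibody the difference was -0.35 and did not pass (adjusted p = 0.147).

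The transmembrane effectors Bst2 (tetherin, which holds budding virions at the cell surface) and Ifitm3 (which blocks viral entry from endosomes), together with Ifi27l2a, a small interferon-induced protein, were lower in BRFc_60mer than in BRFc_3mer. Bst2 had 23.7, 22.8 and 27.8 FPKM in BRFc_60mer, 31.0, 31.0 and 30.8 FPKM in BRFc_3mer, and 30.8, 25.7 and 30.3 FPKM in BRFc. It had 26.2, 27.3 and 28.4 FPKM in Ab_60mer, 27.8, 26.7 and 30.2 FPKM in Ab_3mer, and 28.0, 29.7 and 32.5 FPKM in Ab. BRFc_60mer and BRFc_3mer did not overlap, while the control antibody groups did. BRFc_60mer minus BRFc_3mer was -0.31 (SE 0.078, adjusted p = 0.0254 by limma). The call was lost without any single library of BRFc_3mer or without library 1 or 2 of BRFc_60mer, the highest adjusted p being 0.127 without library 2 of BRFc_60mer.

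Ifitm3 had 11.5, 12 and 11.1 FPKM in BRFc_60mer, 13.8, 16.8 and 14.6 FPKM in BRFc_3mer, and 13.8, 11.5 and 11.9 FPKM in BRFc. It had 12.9, 12.8 and 12 FPKM in Ab_60mer, 12.9, 13.4 and 13.9 FPKM in Ab_3mer, and 11.4, 13.5 and 13 FPKM in Ab. The libraries of BRFc_3mer stood above those of BRFc_60mer and BRFc, by a narrow margin over library 1 of BRFc, and the control antibody groups lay close together. BRFc_60mer minus BRFc_3mer was -0.36 (SE 0.079, adjusted p = 0.0136 by limma), against -0.09 for BRFc_60mer minus BRFc (adjusted p = 0.569). Without library 2 of BRFc_3mer the first had adjusted p = 0.0815.

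Ifi27l2a had 54.3, 50.8 and 63.7 FPKM in BRFc_60mer, 70.5, 78.7 and 83.8 FPKM in BRFc_3mer, and 64.8, 74.8 and 62.8 FPKM in BRFc. It had 61.5, 48.9 and 61.1 FPKM in Ab_60mer, 59.9, 67.5 and 72.4 FPKM in Ab_3mer, and 69.3, 73.8 and 66.5 FPKM in Ab. BRFc_60mer lay below BRFc_3mer, and Ab_60mer below Ab, without overlap. BRFc_60mer minus BRFc_3mer was -0.46 (SE 0.10, adjusted p = 0.0136 by limma), and Ab_60mer minus Ab, at -0.29, did not pass (adjusted p = 0.0647). The first call was lost without library 2 or 3 of BRFc_3mer (highest adjusted p = 0.078) or without library 2 of BRFc_60mer.

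Most other effectors were low. Rsad2 (viperin) averaged 3.37 ± 0.90 FPKM in BRFc_60mer and 5.75 ± 1.3 FPKM in BRFc, and Ifit1, which binds viral RNA caps, 1.80 ± 0.75 and 3.45 ± 0.95 FPKM. Their differences of -0.63 and -0.69 lay near that of Irf7 but did not pass (adjusted p = 0.0597 and 0.0753 by limma). Log2(FPKM + 1) understates changes of such low genes, so the likeness to Irf7 holds on that scale only. Ifit2 (-0.61), Ifit3 (-0.66), Cmpk2 (-0.63) and Oasl1 (-0.70) were alike in size and had adjusted p between 0.0652 and 0.174. Eif2ak2 (PKR), which halts translation on sensing double-stranded RNA, averaged 18.8 FPKM in BRFc_60mer and 22.3 FPKM in BRFc. Ifit3 shares 51.2% of its 50-base stretches with Ifit3b and Oas1a 57.6% of its own with Oas1g, so the levels of these genes depend on how shared reads were assigned, which is not given in the sources used here.

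Among members of the ISG15 pathway beside Trim25, none passed between 2 groups. Isg15, the modifier itself, had 5.10, 4.50 and 5.18 FPKM in BRFc_60mer, 7.30, 4.67 and 7.85 FPKM in BRFc_3mer, and 4.34, 4.08 and 7.70 FPKM in BRFc. It had 3.68, 4.38 and 6.69 FPKM in Ab_60mer, 5.41, 3.77 and 8.11 FPKM in Ab_3mer, and 4.07, 6.95 and 9.89 FPKM in Ab. All groups overlapped, and BRFc_60mer minus BRFc was -0.06 (SE 0.28). Usp18, which removes ISG15 and restrains the receptor, averaged 3.73 FPKM in BRFc_60mer and 5.47 FPKM in BRFc, and Herc6, the mouse ISG15 ligase, 3.94 and 4.69 FPKM.

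Parp14, an ADP-ribosyltransferase that acts in B cells with the interleukin 4 factor STAT6, was the single member not below 0 in either comparison of BRFc_60mer, without passing. It had 51.9, 42.4 and 49.3 FPKM in BRFc_60mer, 41.9, 44.1 and 48.6 FPKM in BRFc_3mer, and 41.2, 45.7 and 56.4 FPKM in BRFc. It had 47.9, 46.0 and 54.8 FPKM in Ab_60mer, 42.4, 41.1 and 45.0 FPKM in Ab_3mer, and 38.3, 40.1 and 48.9 FPKM in Ab. All groups overlapped except Ab_60mer and Ab_3mer, and Ab_60mer minus Ab was 0.22 without passing (adjusted p = 0.183 by limma). Eif2ak2 and Oas2, an RNA-activated synthetase, also lay above 0 for Ab_60mer minus Ab, by 0.051 and 0.021. Parp9, a relative of Parp14, and its partner Dtx3l averaged 32.6 and 23.6 FPKM in BRFc_60mer, against 35.2 and 27.4 FPKM in BRFc. The exons of Parp9 and Dtx3l overlap on opposite strands over 458 bases, and whether counting used strand is not given in the sources used here. Trim30a, a regulator of Toll-like receptor signalling and the member with the highest mean, had 83.2, 69.7 and 76.5 FPKM in BRFc_60mer, 77.5, 85.1 and 102 FPKM in BRFc_3mer, and 81.0, 89.7 and 111 FPKM in BRFc. It had 78.1, 72.9 and 89.8 FPKM in Ab_60mer, 73.7, 80.0 and 89.8 FPKM in Ab_3mer, and 74.4, 81.9 and 91.9 FPKM in Ab, so that its range within each control antibody group spanned the differences between them.

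Counted over the 37 tested members, 4 passed for BRFc_60mer minus BRFc (10.8%), all lower, against 4.83% of all tested genes in either direction and 3.37% lower. For BRFc_60mer minus BRFc_3mer, 5 passed (13.5%), all lower, against 5.16% of all genes and 3.11% lower. Under control antibody the share of members was below that of all genes: 2 passed for Ab_60mer minus Ab (5.41%), against 14% of all genes and 8.94% lower, and 1 for Ab_60mer minus Ab_3mer (2.7%), against 4.81% and 3.01% lower. These counts depend on how the libraries of a group are treated: with the order of deposition as a block, 16 and 14 members passed in the comparisons of BRFc_60mer with BRFc and BRFc_3mer (9.49% and 8.1% of all genes), and 7 and 2 in those of Ab_60mer with Ab and Ab_3mer (20.8% and 9.44%). Parp14 was among the 7, as higher. Comparisons that share a group are not independent of each other.

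The members' median difference was -0.37 for BRFc_60mer minus BRFc, with 36 of 37 below 0, beside a median of -0.02 over all tested genes. Without library 3 of BRFc the median was -0.21 and Trim25 alone passed; without library 2 of BRFc_60mer it was -0.25 and again Trim25 alone passed; without library 1 of BRFc 11 members passed. For BRFc_60mer minus BRFc_3mer the median was -0.35, and 1 member passed without library 2 of BRFc_3mer, 2 without its library 3, 3 without library 2 of BRFc_60mer and 8 without library 3 of BRFc. For Ab_60mer minus Ab it was -0.19, with 34 of 37 below 0, but -0.089 without library 3 of Ab and -0.12 without library 2 of Ab_60mer. For Ab_60mer minus Ab_3mer it was -0.11, with 30 of 37 below 0; it was -0.038 without library 3 of Ab_3mer, -0.037 without library 2 of Ab_60mer and -0.18 without library 3 of Ab_60mer. The medians run across genes that share libraries, so they describe these libraries only.

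**Figure D3:**
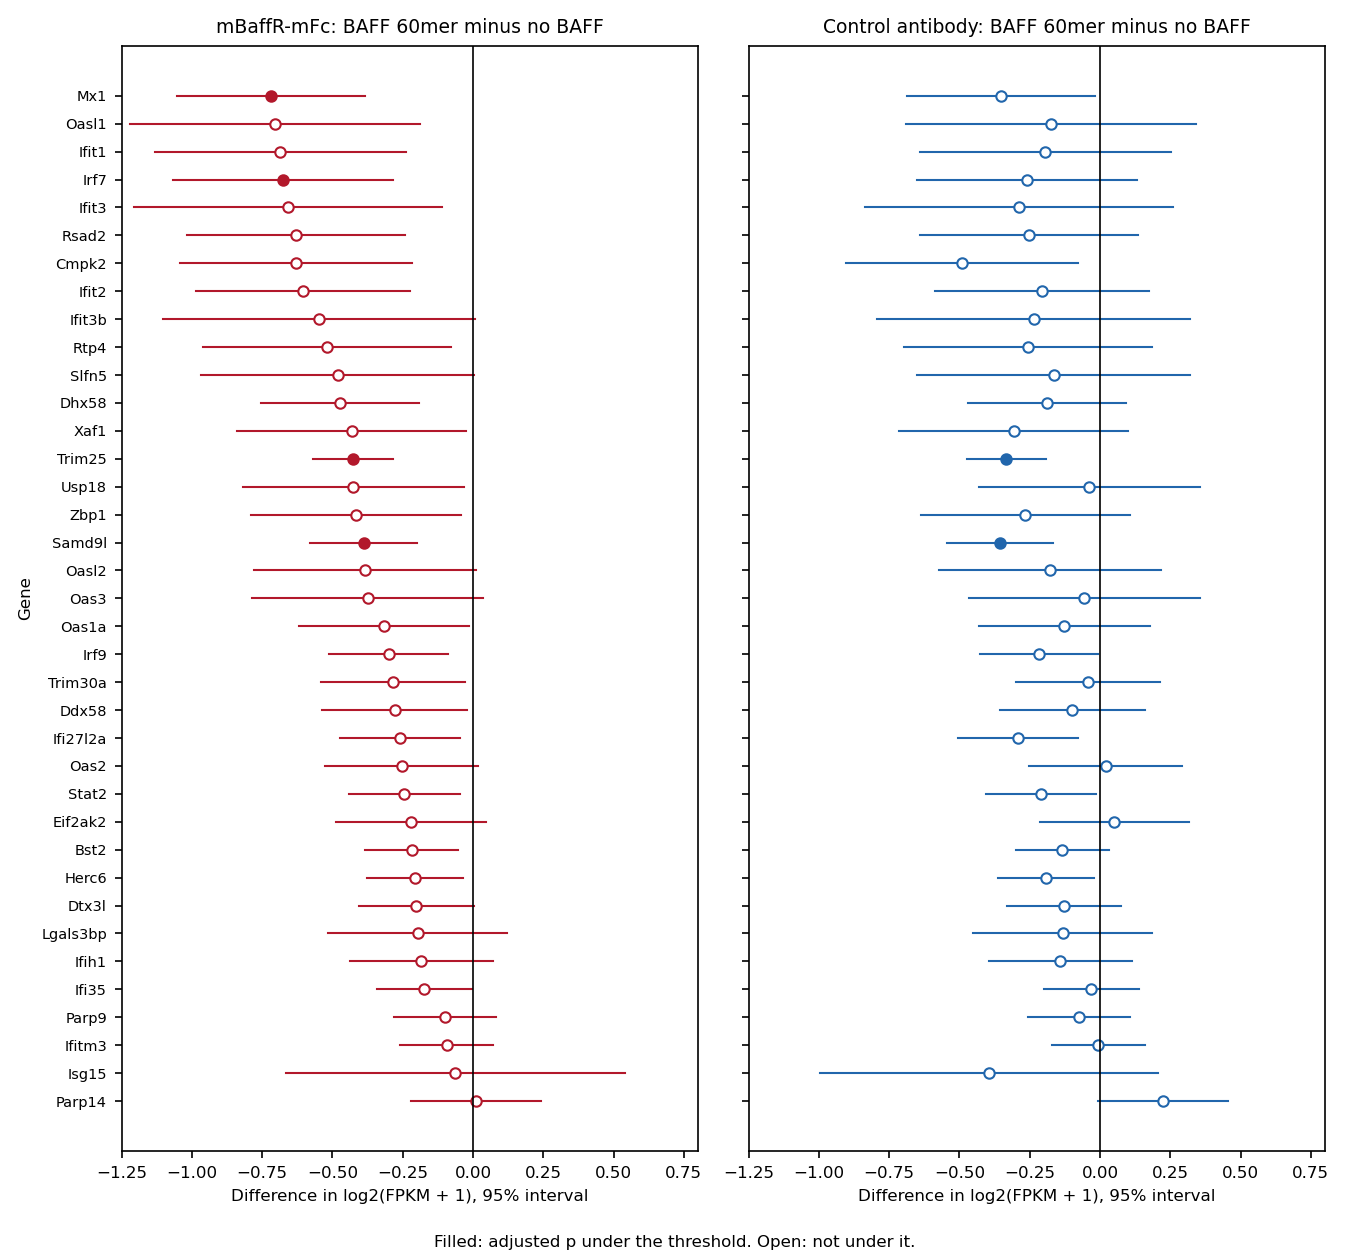
Each row is a tested member, ordered by its difference under mBaffR-mFc; points give the difference in log2(FPKM + 1) of BAFF 60mer minus no BAFF with its 95% interval, filled where it passed. All points but Parp14 lie left of 0 under mBaffR-mFc, and 34 of 37 do under control antibody, where Trim25 and Samd9l passed.

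Averaging over both pretreatments, a comparison chosen after seeing the data, gave more calls. BAFF 60mer minus no BAFF passed for 14 of 37 members (37.8%), all lower, against 22.1% of all genes and 14.3% lower. They were Trim25, Samd9l, Mx1, Cmpk2, Ifi27l2a, Irf9, Irf7, Dhx58, Herc6, Stat2, Rsad2, Bst2, Ifit2 and Ifit1. Trim25 averaged 61.0 ± 2.76 FPKM in the libraries with BAFF 60mer and 79.9 ± 6.97 FPKM in those with no BAFF (SD, n = 6 each), a difference of -0.38 (SE 0.047, adjusted p = 4.01e-05 by limma). Cmpk2, a mitochondrial nucleotide kinase, averaged 2.29 ± 0.45 and 3.90 ± 1.0 FPKM in the same groups (-0.56, adjusted p = 0.00863). Without library 3 of BRFc, 7 members passed, and 9 did without library 3 of Ab, library 1 or 2 of Ab_60mer, or library 2 of BRFc_60mer.

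BAFF 60mer minus BAFF 3mer, averaged in the same way, passed for 7 members (18.9%), Trim25, Samd9l, Ifi27l2a, Ifitm3, Bst2, Irf9 and Cmpk2, all lower, against 14.5% of all genes and 8.6% lower. It shares the 60mer libraries with the comparison before it. Here 4 passed without library 1 or 3 of Ab_3mer, 2 or 3 of BRFc_3mer, 1 or 2 of Ab_60mer, or 2 of BRFc_60mer, and 12 without library 3 of BRFc. Both 60mer group means lay below all 4 other group means for 28 of 37 members (75.7%) and for 26.4% of all tested genes. BRFc_60mer had the lowest group mean of 26 members, and BRFc the highest of 24. Over all 6 groups, limma's F test passed for 4 members, Trim25, Samd9l, Ifi27l2a and Mx1, against 8.93% of all genes; 2 passed without library 1 or 2 of Ab, or 2 or 3 of BRFc_3mer.

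The connective tissue transcripts moved with BAFF 60mer, and their part in these falls was not tested beyond the values that follow. With their presence as a term in the fit, no member passed in any comparison by limma. The count of all genes that passed for Ab_60mer minus Ab fell to 16, against 1628 without the term. Only Ab_3mer holds libraries of both kinds, so the term rests on its library 3 against its libraries 1 and 2. That library also held the highest value of 30 of 37 members in Ab_3mer, so the fit cannot separate these transcripts from its other traits. In that fit the difference of Trim25 was -0.30 for BRFc_60mer minus BRFc (unadjusted p = 0.0222) and that of Mx1 -0.55 (unadjusted p = 0.0774). Markers of other cell types also moved: Zbtb46, a dendritic cell transcription factor, was higher in BRFc_60mer than in BRFc (15.8 and 9.55 FPKM, adjusted p = 0.00047 by limma). It was the single one of 3 tested conventional dendritic cell markers that passed. Itgax and Flt3 lay below 0 for BRFc_60mer minus BRFc (-0.10 and -0.057) and for Ab_60mer minus Ab (-0.20 and -0.061), without passing. The 6 listed, mostly Zbtb46 itself, summed to 17.6 to 22.8 FPKM in BRFc_60mer and 12.6 to 15.2 FPKM in BRFc. In Ab_60mer they summed to 18.5 to 21.3 FPKM, and in Ab to 13.3 to 15.2 FPKM. Of 6 NK cell markers, Il2rb and Klrd1 were lower in BRFc_60mer than in BRFc, and with Klre1 in Ab_60mer than in Ab, and the 6 summed to 123 to 125 FPKM in BRFc_60mer and 126 to 142 FPKM in BRFc, and to 114 to 115 FPKM in Ab_60mer and 134 to 144 FPKM in Ab. The B cell markers summed to 2799.7 to 2989 FPKM in BRFc_60mer and 2988 to 3183 FPKM in BRFc, and to 2860 to 2989.7 FPKM in Ab_60mer and 3077 to 3184 FPKM in Ab. Of the 8, Cd22, an inhibitory B cell receptor partner, was lower in all 4 comparisons with BAFF 60mer (167 FPKM in BRFc_60mer and 190.2 FPKM in BRFc, adjusted p = 0.0159 by limma), and Blk, a B cell kinase, in Ab_60mer against Ab. The monocyte marker Ccr2, 1 of 5 tested of that list, was lower with BAFF 60mer than with no BAFF in the average over pretreatments (9.94 and 11.7 FPKM, -0.22, adjusted p = 0.00627). Plasmacytoid dendritic cell markers, those of the main interferon-producing cell, passed in no comparison of 2 groups. They summed to 119 to 126 FPKM in BRFc_60mer and 121 to 137 FPKM in BRFc. Tcf4 alone averaged 108 FPKM over the 18 libraries, so the sum mostly reflects Tcf4. Siglech, which defines that cell, stayed at 0.258 to 0.675 FPKM, and Klk1 and Cox6a2 averaged 0.0742 and 0.146 FPKM. The macrophage and monocyte list summed to 54.1 to 61.0 FPKM, the neutrophil list to 19.3 to 36.2 FPKM and the erythroid and platelet list to 9.39 to 16.1 FPKM over the 18 libraries, and none of their tested genes passed between 2 groups. The part of these cells in the members' levels was not tested.

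BAFF 3mer changed no member by the test. For BRFc_3mer minus BRFc and for Ab_3mer minus Ab, 0 members passed limma or voom, as did 0.0% of all tested genes in each. By limma, 1 member (Ifitm3) and none had an unadjusted p under 0.05, beside 388 and 632 of all 11646 genes. Trim25 differed by -0.07 (95% interval -0.22 to 0.07) for BRFc_3mer minus BRFc and by -0.01 (-0.16 to 0.13) for Ab_3mer minus Ab. Mx1 differed by -0.21 (-0.54 to 0.13) and -0.22 (-0.55 to 0.11). The members' median was -0.06 for BRFc_3mer minus BRFc and changed sign without library 3 of BRFc (0.098) or library 1 of BRFc_3mer (0.042); without 1 library it ranged from -0.17 to 0.098. For Ab_3mer minus Ab, which lies partly across the split by connective tissue transcripts, it was -0.088. It ranged from -0.13 to -0.014, the end nearest 0 being without library 3 of Ab. Averaged over both pretreatments, 0 of 37 passed, again with 0.0% of all genes.

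Pretreatment with mBaffR-mFc in place of control antibody changed no member by the test. For BRFc minus Ab and BRFc_3mer minus Ab_3mer 0 members passed limma or voom, against 0.0% of all genes in each, and for BRFc_60mer minus Ab_60mer 0 passed, against 0.0258%. At an unadjusted p under 0.05 by limma there were 1, 4 and 0 of 37 members, beside 688, 452 and 540 of all 11646 genes. The median was 0.13 for BRFc minus Ab, with 31 of 37 above 0, and without 1 library it ranged from -0.0013, without library 3 of BRFc, to 0.23, without library 1 of BRFc. It was 0.18 for BRFc_3mer minus Ab_3mer, and 0.1 without library 3 of BRFc_3mer. In that comparison libraries 1 and 2 of Ab_3mer alone carry connective tissue transcripts. The members summed to 704 and 719 FPKM in them and to 816 FPKM in library 3 of Ab_3mer. The part of this split in the 0.18 was not tested. The median was -0.06 for BRFc_60mer minus Ab_60mer, with a range from -0.12 to 0.026, and lay above 0 without library 3 of Ab_60mer or library 2 of BRFc_60mer. Averaged over the 3 BAFF states, 0 passed, against 0.00859% of all genes.

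Whether the fall with BAFF 60mer differed between pretreatments was tested by an interaction. No member passed it by limma or voom or had an unadjusted p under 0.05. Of all 11646 genes, 0.00859% passed by limma and 640 had an unadjusted p under 0.05. The smallest p belonged to Mx1, whose difference was lower by -0.37 under mBaffR-mFc (95% interval -0.84 to 0.11). The median interaction was -0.19, and ranged from -0.31 without library 1 of BRFc to -0.064 without library 3 of BRFc. The interaction for BAFF 3mer likewise passed for 0 members, beside 0.0% of all genes.

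Within groups, the members moved together from library to library. Library 3 held the highest value of 32 of 37 members in BRFc_3mer, 33 in BRFc, 29 in Ab_60mer, 30 in Ab_3mer and 30 in Ab, and of 17 in BRFc_60mer. Over all tested genes, library 3 held the highest value of 34.6% to 41.6% of genes per group. In BRFc the members' median difference from the group mean was -0.21, -0.05 and 0.27 in libraries 1, 2 and 3, beside -0.01 to 0.01 over all genes. In BRFc_60mer, library 2 held the lowest value of 32 members, with a median of -0.13. The numbers follow the order of deposition and the labels tie them to nothing, so what sets library 3 apart was not tested. Summed over the 38 members, the levels ran from 615 FPKM in library 2 of BRFc_60mer to 984 FPKM in library 3 of BRFc.

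**Figure D4:**
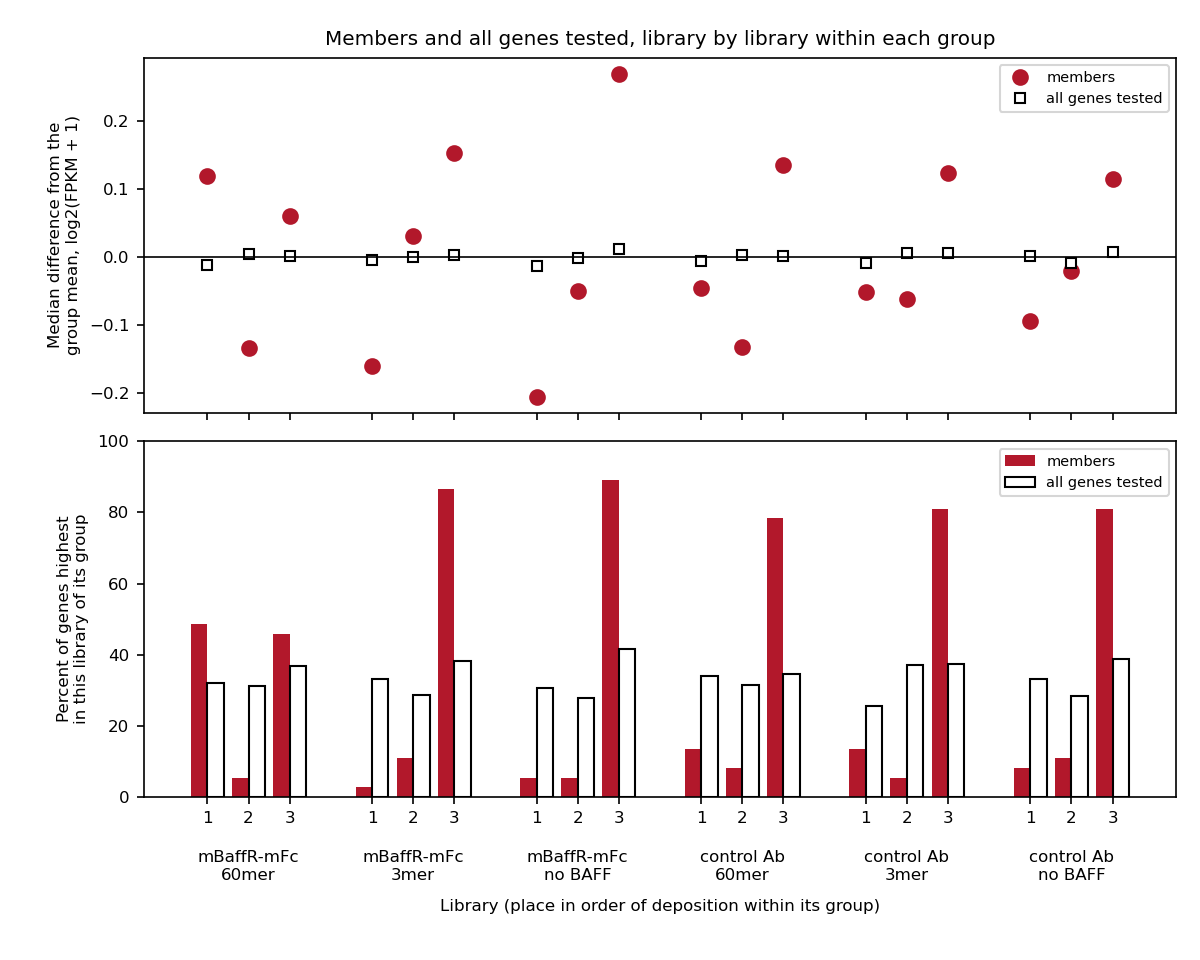
Top: median difference of each library from its group mean in log2(FPKM + 1), over the 37 members (red points) and over all tested genes (open squares); bottom: percent of members and of all genes with their highest value of the group in that library. The members' bars for library 3 stand at 78.4% to 89.2% in the 5 groups other than BRFc_60mer, where they stand at 45.9%.

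The receptor subunits had a narrow range, and the kinases did not pass a test. The 6 genes of their list, mostly Jak1 and Stat3, summed to 927 to 964 FPKM in Ab_60mer and 979 to 1036 FPKM in Ab, without overlap. They summed to 960 to 1006 FPKM in BRFc_60mer and 995 to 1116 FPKM in BRFc, with overlap. Ifnar1 ranged from 73.2 to 81.6 FPKM and Ifnar2 from 30.1 to 36.0 FPKM over the 18 libraries, and none of Ifnar1, Ifnar2, Jak1, Tyk2 and Stat3 passed in any comparison. Ifnar1 differed by -0.045 (95% interval -0.14 to 0.05) for BRFc_60mer minus BRFc, and Ifnar2 by -0.09 (-0.20 to 0.02).

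The interferon genes themselves were almost silent. Of 21 ligand genes, 14 were listed at 0 in every library, and Ifng, the type II interferon, was the single gene tested, at 0.572 to 1.44 FPKM. Ifnb1 was listed above 0 in 9 of 18 libraries, with a highest value of 0.366 FPKM in library 2 of Ab.

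Among 19 tested sensors and inducers upstream of interferon, 3 were higher and 1 lower in Ab_60mer than in Ab, where 14% of all genes passed. For BRFc_60mer minus BRFc 1 passed, as higher, where 4.83% of all genes did. Tmem173 (STING), the adaptor of cytosolic DNA sensing, had 46.1, 46.2 and 47.8 FPKM in BRFc_60mer and 36.4, 33.8 and 40.5 FPKM in BRFc (0.33, adjusted p = 0.00373 by limma). It had 47.4, 53.0 and 50.6 FPKM in Ab_60mer and 36.0, 37.4 and 36.8 FPKM in Ab (0.44, adjusted p = 0.000262), and neither pair of groups overlapped. Traf3, which links such adaptors to interferon production and is also the brake on non-canonical NF-kB signalling that BAFF releases, was higher in Ab_60mer than in Ab (0.27, adjusted p = 0.00334), as was Tlr9 (0.18, adjusted p = 0.0185). Irf3, the factor that first switches on Ifnb1, was lower in Ab_60mer than in Ab (77.0 and 94.5 FPKM, -0.30, adjusted p = 0.0272).

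Of 57 other interferon-stimulated genes tested, 6 were lower and 0 higher for BRFc_60mer minus BRFc, and 7 were lower and 1 higher for Ab_60mer minus Ab, beside the same shares of all genes as above. Sp100, a nuclear body protein, was lower in all 4 comparisons with BAFF 60mer; it had 227, 217 and 225 FPKM in BRFc_60mer and 256, 274 and 289 FPKM in BRFc, without overlap (-0.29, adjusted p = 0.00139 by limma). Ifi214 (-0.42), Ifi209 (-0.36) and Ifi213 (-0.66), relatives of the DNA sensor IFI16, also fell in BRFc_60mer against BRFc. For Ab_60mer minus Ab the smallest p-values belonged to Sp100 (-0.26), Ifi214 (-0.25), Sp110 (-0.21) and Slfn1 (-0.79). For BRFc_60mer minus BRFc_3mer 8 were lower, with Sp100, Ifi214, Ifi209 and Ly6a first, and for Ab_60mer minus Ab_3mer 2 were, Sp100 and Ifi214. Rnf213, a giant ubiquitin ligase, was higher in Ab_60mer than in Ab (22.2 and 16.6 FPKM, 0.42, adjusted p = 0.0329). The median over the 57 was -0.19 for BRFc_60mer minus BRFc and -0.15 for Ab_60mer minus Ab.

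The interferon-inducible GTPases, which respond mostly to interferon gamma, and the negative regulators passed in none of the 9 comparisons of 2 groups (12 and 8 tested). Gbp3 and Ifi47, the GTPase genes with the highest means, ranged from 31.5 to 42.4 FPKM and from 27.8 to 44.1 FPKM over the 18 libraries. Averaged over both pretreatments, where 22.1% of all genes passed, 1 of the 12 and 2 of the 8 did. Irgm2 was lower with BAFF 60mer than with no BAFF (7.22 and 8.90 FPKM, adjusted p = 0.0467 by limma). Among negative regulators, Ptpn6 (SHP-1) was higher in that comparison (359 and 329.7 FPKM, 0.12, adjusted p = 0.027) and Irf2, which competes for ISREs, lower (98.5 and 107 FPKM, -0.11, adjusted p = 0.0394).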

How the data were processed

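The deposited values were FPKM, which per the labels' protocols a sequencing company determined from total RNA for the authors; the aligner, counting tool and genome build are not given in the sources used here. Symbols came from GENCODE mouse release M21, which matched 34490 of 35275 IDs. Library totals were recovered from the FPKM of single-transcript genes; 88.9% of their values under 500 fragments came out whole to within 0.1.

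Values were taken as log2(FPKM + 1), which understates changes of low genes. Testing used limma 3.58.1 (R 4.3.3) on genes averaging 1 FPKM or more (trend, 1 residual variance over 6 groups, Benjamini-Hochberg over all 11646 genes, threshold 0.05), in 9 comparisons of 2 groups, 2 interactions and an F test. The steps were tested on simulated data. Averages over pretreatments and voom on estimated fragments were chosen after seeing the data.

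The members and lists were chosen with earlier results of these data known. Values in every library are given for members that passed in any of the 9 comparisons and for the 6 with the highest mean; Isg15 was added after its values were seen. Other lists name up to 4 passing genes per comparison, or the 2 highest where none passed, and Ifnar1 and Ifnar2 always; 1 further gene of that rule is not reported here. Marker lists are given mainly by their summed FPKM. Promoters came from RefSeq (GRCm38.p6), motifs searched on both strands. Gbp5, Gbp6 and Gbp10 were not analysed here. Alternatives were to leave out each library, to add a connective tissue term or keep only the carrying libraries, to block on the place of a library in its group's deposition, to weight arrays by quality, to rescale by median-of-ratios, to drop the filter or raise it to 5 FPKM, and to lower the pseudocount to 0.1.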

Additional observations from a re-analysis of the deposited data

How the results depend on the processing

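No paired analysis was possible because the labels give no replicate numbers; the order of deposition was used as a block only as an alternative. Without 1 library, the members that passed ranged from 1 to 11 for BRFc_60mer minus BRFc, 1 to 8 for BRFc_60mer minus BRFc_3mer, 1 to 3 for Ab_60mer minus Ab and 0 to 1 for Ab_60mer minus Ab_3mer. The ranges were 7 to 21 and 4 to 12 for the averages of 60mer minus no BAFF and 60mer minus 3mer, and 2 to 6 for the F test. In these fits all genes that passed ranged from 242 to 731, 233 to 667, 756 to 1798 and 246 to 628 for the 4 comparisons of 2 groups. No call changed its sign. With the connective tissue term, 0 passed in all of these, and 0 for Ab_60mer minus Ab_3mer among carrying libraries. Few of all genes passed with the term for Ab_60mer minus Ab, so 0 members was near their share. Shares of all genes for the other fits with the term, and among carrying libraries, are not given here. That term rests on library 3 of Ab_3mer against its libraries 1 and 2. The cause was not tested. With deposition order as a block, 16, 14, 7 and 2 passed in the 4 comparisons of 2 groups in the order given, and 14 for the averaged 60mer minus 3mer and for the F test; Parp14 was higher in Ab_60mer than in Ab. With quality weights, 17 and 21 passed under mBaffR-mFc, 24 and 16 for the averages and 10 for the F test. Without a filter, 7 and 4 passed for the averages and 2 for the F test, with more genes tested; at a minimum mean of 5 FPKM, 9 passed for 60mer minus no BAFF, with 25 members tested. By voom, 7 passed for BRFc_60mer minus BRFc, 3 for BRFc_60mer minus BRFc_3mer and 4 for the averaged 60mer minus 3mer. Shares of all genes for the weighted, unfiltered, 5 FPKM and voom fits are not given here, so their counts stand without a background. Pseudocount and rescaling left these counts within 1.5 times. Depth limits the low members: at its median library Isg15 rests on 71 fragments, a counting error of 11.9%.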
